A study of Homo sapiens with 4 samples.

Results

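The mitochondrial ribosome translates the few proteins that are encoded in mitochondrial DNA, all of them subunits of the oxidative phosphorylation complexes. Its RNAs come from the mitochondrial genome, but its proteins are encoded in the nucleus, made in the cytosol and imported. The large subunit joins amino acids and releases the nascent chain at the inner membrane, and the small subunit binds the mRNA and decodes it.

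The 77 genes described here are the rows of the deposited expression table whose symbol is MRPL or MRPS followed by a number and, where present, a letter A to C. They are 77 of 13957 genes in that table, with 48 named for the large subunit (MRPL) and 29 for the small subunit (MRPS). GENCODE release 44 has 78 protein-coding genes of that form, and MRPL53 was not analysed here. Each member was given its subunit by the letter in its symbol, which no measured value decides.

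RNA was sequenced from 4 samples of MDA-MB-231 Fluc, a triple-negative breast cancer cell line that carries a luciferase reporter gene for imaging. In 2 samples the cells had received 50 μM cordycepin, which is 3′ deoxyadenosine, and in the other 2 the vehicle DMSO, for 2 h in each case. Both groups come from the same line, and the labels do not say whether duplicates were separate cultures. The deposited table gives 1 mean expression value per gene over all 4 samples, as log2 CPM (read counts relative to the total of the library), so a value per sample, an SD and the depth of each library cannot be given. Its remaining statistics belong to the authors' comparison of cordycepin with DMSO and were not used, so no effect of cordycepin is described here, and every level below is a mean over treated and control cells. No test was made, as genes are not replicates of a condition.

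The mean log2 CPM in the table ran from 0.56 to 13.43. Levels were compared between genes per length. The level of a gene is its mean log2 CPM less the log2 of the length of its reference transcript in kilobases, and is given as log2 CPM per kilobase. All 6 genes listed as expressed in MDA-MB-231 had high levels, from 7.70 log2 CPM per kilobase for MSN to 9.34 for VIM, the mesenchymal filament gene. Of the genes listed as low or lacking in this line, CDH1 was at 1.41, GATA3 at 2.86 and EPCAM at 3.05. The median of all protein-coding genes was 3.16, so GATA3 and EPCAM were near the middle of the table. ESR1 and PGR, the hormone receptor genes, had no row in the table as analysed here.

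The 77 members had a median level of 5.22, with quartiles of 3.90 and 5.80. The median of all 11603 protein-coding genes in the table was 3.16, and 70 of the 77 members (90.9%) were above it. The mitochondrial ribosomal protein genes thus lay mostly in the upper part of the table, with a spread from 1.58 for MRPS17 to 7.09 for MRPL41. On the linear scale the median member stood at 37.3 CPM per kilobase, beside 8.94 for all protein-coding genes. The size of this gap depended on the division by length, as the median reference transcript had 1260 bases among members and 3445 among all protein-coding genes. Before division by length the medians were 5.56 and 4.95 log2 CPM.

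**Figure D1:**
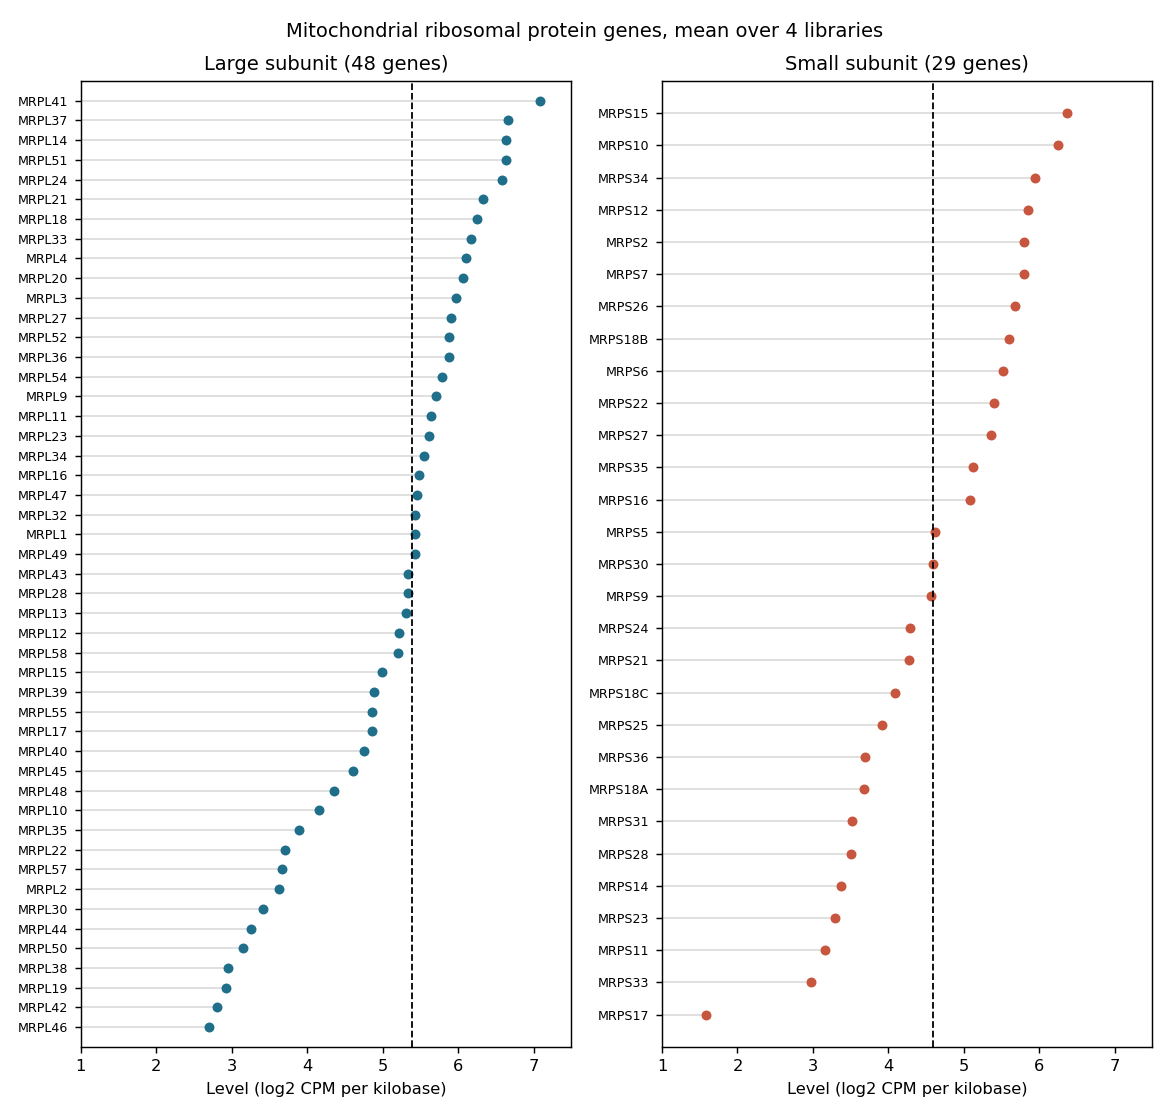
Level of each of the 77 members in log2 CPM per kilobase, as the authors' mean over 4 libraries, for the 48 large subunit genes (left) and the 29 small subunit genes (right). Points are genes and the dashed lines are the medians, at 5.38 and 4.59, and the lowest point is MRPS17 at 1.58.

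The large subunit genes had a median level of 5.38 log2 CPM per kilobase, with quartiles of 4.31 and 5.89. The small subunit genes had a median of 4.59, with quartiles of 3.67 and 5.60. The difference between the medians was 0.79, while the ranges overlapped over most of their length, from 2.70 to 7.09 in the large and from 1.58 to 6.37 in the small subunit. Of the 19 highest members 14 belonged to the large and 5 to the small subunit, and of the 19 lowest 10 belonged to the large and 9 to the small. The difference fell to 0.35 without the members that share exon bases with another gene on either strand, and to 0.49 between means. Before division by length the direction turned and the large subunit genes were the lower ones, with a median of 5.55 log2 CPM against 5.67. Per kilobase of coding sequence, a scale added after the data were seen, the medians were 6.38 and 6.34, a difference of 0.041.

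The members' transcripts were short, and the subunits differed in the part that follows the coding sequence. Coding lengths were nearly the same, with medians of 585 bases for the large and 588 bases for the small subunit. From the end of the coding sequence, stop codon included, to the end of the transcript the median was 391.5 bases in the large and 598 bases in the small subunit. This part exceeded 1000 bases in 9 of 48 large subunit genes (18.8%) and in 11 of 29 small subunit genes (37.9%), compared with 59.4% of all protein-coding genes. The longest reference transcript, that of MRPL42, has 15557 bases, of which 14996 follow a coding sequence of 426. MRPL42 ranked number 4 of 77 by mean log2 CPM, at 6.76, and number 75 per kilobase, at 2.80. MRPL19, with 7825 bases, moved from rank 27 to rank 74. Which transcript these cells use was not measured, so the low places of both genes rest on the reference transcript. Among members with transcripts of at most 1260 bases, the median of all members, the median level was 5.66 for 28 large subunit genes and 5.51 for 11 small subunit genes. Among longer ones it was 4.26 for 20 large and 4.32 for 18 small subunit genes. Within a length class the median levels lay closer together than in the pooled comparison, and among the longer transcripts the small subunit had the higher one. The level is already divided by length, yet in both subunits it was lower among the longer transcripts. Over the 77 members the Spearman correlation between mean log2 CPM and transcript length was 0.18. The order within a class depended on the scale. In mean log2 CPM the medians were 5.35 for large and 5.67 for small among the shorter transcripts. Among the longer ones they were 5.79 and 5.55, so in both classes the order was the reverse of that by level.

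**Figure D2:**
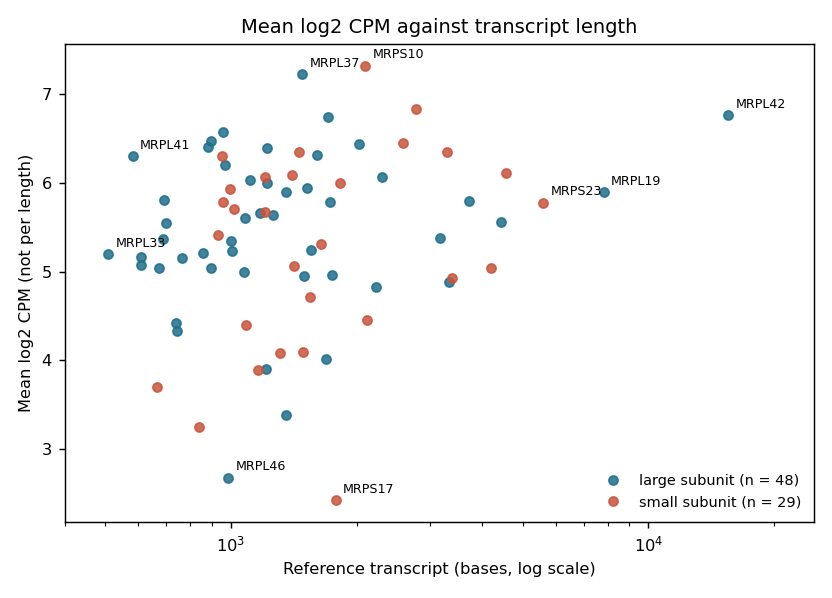
Mean log2 CPM, not per length, against the length of the reference transcript in bases (log scale) for 48 large and 29 small subunit genes. MRPL42 and MRPL19 stand at the far right, at ranks 4 and 27 of 77 by log2 CPM, and MRPS17 and MRPL46 at the bottom with transcripts of ordinary length.

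In the large subunit the highest level was that of MRPL41 (chromosome 9, 137551879 to 137552555, GRCh38), at 7.09 log2 CPM per kilobase, from a transcript of only 582 bases. It was followed by MRPL37 (chromosome 1, 54184041 to 54225464) at 6.65, MRPL14 (chromosome 6, 44113451 to 44127452) at 6.63, MRPL51 (chromosome 12, 6491886 to 6493841) at 6.63 and MRPL24 (chromosome 1, 156737303 to 156741590) at 6.58. MRPL37, MRPL41 and MRPL51 belong to the proteins that the mitochondrial ribosome has gained beyond its bacterial ancestor, whereas MRPL14 and MRPL24 have bacterial homologues. The order of the last 4 rests on small gaps, for which no spread between samples can be given. MRPL37 also has the longest coding sequence of its subunit (423 codons), and MRPL33 the shortest of all members, with 65 codons at a level of 6.17. The lowest large subunit genes were MRPL46 at 2.70, MRPL42 at 2.80, MRPL19 at 2.93, MRPL38 at 2.95 and MRPL50 at 3.15.

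In the small subunit MRPS15 (chromosome 1, 36455718 to 36464384) was highest at 6.37, followed by MRPS10 (chromosome 6, 42206807 to 42217861) at 6.25. MRPS34, a protein of the mitochondrial small subunit without a bacterial counterpart, stood at 5.94. MRPS12, whose bacterial homologue lies at the decoding centre, stood at 5.85, and MRPS2 at 5.80. MRPS10 had the highest log2 CPM of all members, 7.32. The lowest were MRPS17 (chromosome 7, 55951877 to 55956500) at 1.58, MRPS33 at 2.97, MRPS11 at 3.16, MRPS23 at 3.29 and MRPS14 at 3.37. On this scale the next lowest of all members after MRPS17 was MRPL46 at 2.70. The order at the bottom depended on the length, since per kilobase of coding sequence MRPL46 stood at 2.93, with MRPL38 next, both below MRPS17 at 3.78, and before division by length MRPS17 stood at 2.42 and MRPL46 at 2.68 log2 CPM. MRPS23, with 5609 bases, moved from rank 33 by log2 CPM to rank 68 per kilobase, and MRPS33, with 4210 bases, from rank 56 to rank 72. The longest coding sequence of the small subunit was that of MRPS30 (439 codons) and the shortest that of MRPS21 (87 codons), with levels of 4.59 and 4.28.

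Genes for neighbouring parts of the ribosome were at unlike levels. The genes in this paragraph were chosen by role after their values had been seen. In the stalk of the large subunit, which recruits translation factors, MRPL11 stood at 5.64, MRPL12 at 5.22 and MRPL10 at 4.16. MRPL12 has also been described as a partner of the mitochondrial RNA polymerase. Around the centre where peptide bonds form, MRPL3 stood at 5.97, MRPL27 at 5.91 and MRPL16 at 5.49, but MRPL2 at 3.62. In MRPL2, 52.1% of the reference transcript lies in exons of other genes on the same strand, and in the other 3 genes 0%. The part of this in the low value of MRPL2 was not tested. Among proteins lining the exit of the nascent chain, MRPL24 stood at 6.58, MRPL4 at 6.10 and MRPL23 at 5.62, but MRPL45, which faces the inner membrane, stood at 4.61 and MRPL22 at 3.71. The last contrast came with transcript length, as the transcripts of MRPL23, MRPL45 and MRPL22 have 673, 1553 and 3173 bases and their log2 CPM, before division by length, were 5.04, 5.24 and 5.37. MRPL58, a peptidyl-tRNA hydrolase that frees stalled ribosomes and is also a structural part of the large subunit, stood at 5.21.

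Of the 3 paralogues of the bacterial protein S18, MRPS18B stood at 5.60, MRPS18C at 4.08 and MRPS18A at 3.67. In structures of the human mitochondrial ribosome MRPS18A and MRPS30 lie in the large subunit in spite of their names. When both were moved there, the medians were 5.34 and 4.62. MRPS36, which is known as a component of the 2-oxoglutarate dehydrogenase complex, stood at 3.69. It was counted with the small subunit by its symbol alone. The 29 large subunit genes listed with a bacterial homologue had a median of 5.49 and the other 19 a median of 4.86. In the small subunit the medians were 4.59 for 18 genes with and 4.59 for 11 genes without a homologue.

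Of the 5 mitochondrial ribosomal protein genes with symbols of another form, PTCD3 was below the members' median of 5.22 and the others were above it. AURKAIP1, of the small subunit, stood at 6.98, DAP3, a GTP-binding protein of the small subunit, at 5.98 and CHCHD1 at 5.66. PTCD3, a pentatricopeptide repeat protein of the small subunit, stood at 4.07. GADD45GIP1, of the large subunit, stood at 5.73.

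The other genes of mitochondrial translation were mostly lower than the ribosomal proteins. The 12 translation factor genes with a row had a median of 3.40, from 0.39 for TSFM, which encodes an elongation factor, to 6.86 for TUFM, the elongation factor that brings tRNA to the ribosome. The 24 assembly factor genes had a median of 3.28, from 1.27 for the rRNA methyltransferase gene NSUN4 to 5.48 for ERAL1, whose product binds the small subunit RNA. The 16 mitochondrial tRNA synthetase genes had a median of 3.15, from 1.11 for PARS2 to 6.20 for IARS2. The 9 genes for transcription and RNA handling in mitochondria had a median of 3.93, from 2.16 for the poly(A) polymerase gene MTPAP to 7.35 for SLIRP, whose transcript has 376 bases. Before division by length their median was 5.57 log2 CPM, beside 5.56 for the members.

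The nuclear genes for oxidative phosphorylation subunits, whose partners the mitochondrial ribosome makes, had a median of 6.26 over 74 genes, from 1.00 for NDUFA9 to 8.65 for ATP5F1B. The last place of NDUFA9 rests on a reference transcript of 8356 bases. Before division by length NDUFA9 stood at 4.07 log2 CPM, and the lowest gene was NDUFV2 at 1.29. The 79 cytosolic ribosomal protein genes had a median of 8.32, from 3.18 for RPL36A to 10.28 for RPLP2. The linear medians were 37.3 CPM per kilobase for the mitochondrial and 320.2 for the cytosolic ribosomal protein genes. The highest mitochondrial ribosomal protein gene, MRPL41, was below the cytosolic median.

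**Figure D3:**
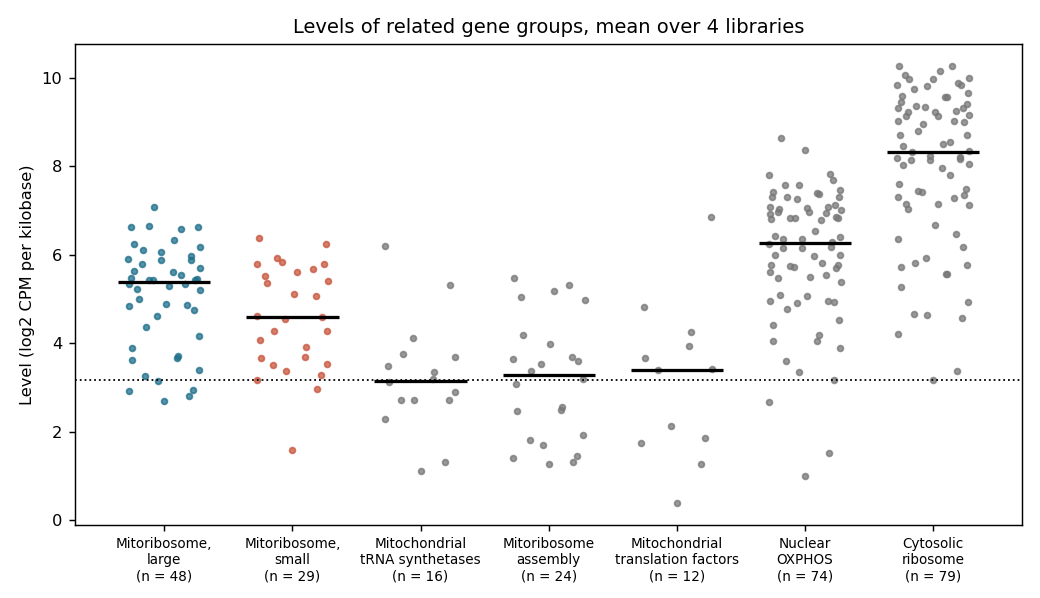
Levels of the genes in log2 CPM per kilobase, as the authors' mean over 4 libraries, for each subunit of the mitochondrial ribosome and for 5 related groups. Points are genes, bars are medians and the dotted line is the median of all protein-coding genes, 3.16; the subunits lie between the translation, assembly and synthetase genes below and the oxidative phosphorylation and cytosolic ribosome genes above.

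Several of the lowest members shared exon bases with another gene on the same strand. How reads from shared bases were counted is not given in the sources used here. In MRPL38, 94.3% of the reference transcript lies in exons of other genes on the same strand, in MRPL46 73.4% and in MRPS17 29.4%. The 7 members with more than 50% shared had a median level of 3.62, and 7 further members with a smaller part shared had a median of 3.41. The 63 members with none had a median of 5.41. Of the 19 lowest members, 4 were in the first of these groups, 4 in the next and 11 in the last. MRPS5, with 97.1% shared, stood at 4.62. MRPL12, with 69.5%, stood at 5.22, which was the highest level of the 7 and equal to the members' median. The part of shared bases in the low values was not tested. Some members also overlapped a gene on the opposite strand, such as MRPS18C with 83.6% of its bases in exons of ABRAXAS1, and for these the values depend on whether strand was used in counting, which is not stated.

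The members often lay head to head with another gene. A protein-coding gene on the opposite strand started within 1000 bases of the member's start for 27 of 77 members (35.1%), compared with 14.1% of all protein-coding genes in the table. The share was 39.6% in the large subunit (19 of 48) and 27.6% in the small subunit (8 of 29). Among nuclear oxidative phosphorylation genes it was 32.4%, and among cytosolic ribosomal protein genes 17.7%. Several neighbours serve mitochondria as well. MRPL43 starts 46 bases from TWNK, the mitochondrial DNA helicase gene, and MRPS12 181 bases from SARS2, the mitochondrial seryl-tRNA synthetase gene. MRPL47 starts 156 bases from NDUFB5, which encodes a subunit of complex I, and MRPS27 133 bases from PTCD2. MRPL49 starts 187 bases from FAU, which encodes a cytosolic ribosomal protein.

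A shared start region did not go with equal levels. MRPS12 stood at 5.85 and SARS2 at 1.31, and MRPL43 stood at 5.34 and TWNK at 2.52. MRPS27 stood at 5.36 and PTCD2 at 0.14. FAU, in contrast, stood at 8.81, above MRPL49 at 5.42. Before division by length these pairs lay closer together. In log2 CPM, MRPS12 and SARS2 stood at 5.79 and 2.26, and MRPL43 and TWNK at 5.34 and 4.37. On that scale MRPS27 and PTCD2 stood at 6.83 and 3.62, and MRPL49 and FAU at 6.44 and 7.82. Of 26 such pairings in which both genes had a level, the member was the higher one in 21, with the pairing of 2 members counted from each side. The members' median level lay above the levels of 82.9% of all protein-coding genes, so this count is not read as a trait of the pairings. These neighbours were chosen after their values had been seen.

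In 1 case both neighbours are members. MRPL46 and MRPS11, of different subunits, lie on opposite strands of chromosome 15 with their reference starts 320 bases apart. Both were low, at 2.70 and 3.16. The 64 bases between the reference start of MRPL46 and the annotated start of the MRPS11 gene are shown because the region is short; they run 2 bases into the MRPL46 gene as the table delimits it, and are given 5′ to 3′ on the minus strand as MRPL46 is read (RefSeq, GRCh38.p14), all in lower case because none of the motifs searched lies within them.
MRPL46 to MRPS11, chr15:88467389-88467452: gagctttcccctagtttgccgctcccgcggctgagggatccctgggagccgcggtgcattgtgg

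Most members had little sequence before the coding start. The median from the transcript's start to the coding start was 41.5 bases in the large and 22 bases in the small subunit, compared with 139 bases for all protein-coding genes. It was under 100 bases in 63 of 77 members (81.8%) and in 37.0% of all protein-coding genes. It was also short in the nuclear oxidative phosphorylation genes, with a median of 53 bases, and in the cytosolic ribosomal protein genes, with a median of 42 bases.

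Sequences around the start, from 250 bases before to 50 after it, were found in RefSeq for 68 of the 77 members (41 large and 27 small subunit genes) and for 9435 of the protein-coding genes in the table. Of the cytosolic ribosomal protein genes 79.7% had one, below the minimum of 80% that was set, so no motif share is given for them. Letters were searched on both strands. CCGGAAG, a core that ETS family factors recognise, was present in 29 of 68 members (42.6%), compared with 20.9% of the protein-coding genes in the table, 10.3% of all RefSeq start regions of this length and 33.3% of the oxidative phosphorylation genes. The share was 41.5% in the large and 44.4% in the small subunit. On the strand of the gene alone the core was in 22.1% of the members and in 11.9% of the protein-coding genes. TATAAA was present in 3 members (4.41%) and in 4.67% of the protein-coding genes. The palindromic consensus that the factor NRF1 recognises was present in 1 member (1.47%) and in 2.46% of the protein-coding genes. These are matches of letters, and no binding was measured.

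AAGATGGC, the core of the motif of the factor YY1, was present in 21 of 68 members (30.9%), compared with 6.01% of the protein-coding genes and 2.89% of all RefSeq start regions. These letters contain a start codon. In 13 of the 21 members the ATG within them is the annotated start codon, as it is in 43.0% of the protein-coding genes that hold the letters. This was so in 6 of 13 large and 7 of 8 small subunit genes. The searched region held the start codon in 57.4% of the members but in 16.9% of the protein-coding genes. The letters were present, but never at the start codon, in 11.8% of the members (17.1% of the large and 3.70% of the small subunit) and in 3.42% of the protein-coding genes. The letters can also overlap the ETS core, but the joined form was found in 0 members, and 8 members held both. In 16 of 22 occurrences the letters lay on the strand of the gene at or after its start, by at most 35 bases. The sequences of 6 members, from among those with the letters and the highest levels, are shown, with the letters or their reverse complement in capitals, to display where they fall relative to the coding sequence (RefSeq, GRCh38.p14, 5′ to 3′ on the strand of the gene).
MRPL51, chr12:6493223-6493252, minus strand: gggtaaggcccAAGATGGCtgtcttcgcct
MRPS10, chr6:42217834-42217863, minus strand: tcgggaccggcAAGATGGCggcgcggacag
MRPL20, chr1:1407260-1407289, minus strand: ccgacccgggcAAGATGGCagcggcgctgc
MRPL52, chr14:22829778-22829807, plus strand: tacgatgacccAAGATGGCggagccgtgat
MRPL36, chr5:1799854-1799883, minus strand: ccccccccgccGCCATCTTccttcctggca
MRPS7, chr17:75261887-75261916, plus strand: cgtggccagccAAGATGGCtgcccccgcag

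In MRPS10 and MRPS7 the ATG in capitals is the annotated start codon, and the letters begin 9 and 19 bases after the start of the transcript. In MRPL51 and MRPL20 the letters begin 21 and 15 bases after the start, but the annotated start codon is another. In MRPL52 they occur 98 and 64 bases before the start, and the first of these is shown. In MRPL36 they lie on the opposite strand, 28 bases before it. The 21 members with the letters and the 47 without showed no steady order, with median levels of 5.42 and 5.22 but mean levels of 4.86 and 4.96.

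A cytosine followed by at least 4 pyrimidines at the first base of the transcript is the mark of mRNAs whose translation depends on mTOR, and it is typical of cytosolic ribosomal protein genes. It was present in 4 of 68 members (5.88%), compared with 5.61% of the protein-coding genes and 11.7% of the oxidative phosphorylation genes. The 4 members are MRPL44, MRPL45, MRPS27 and MRPS33, with levels of 3.26, 4.61, 5.36 and 2.97. Their sequences are shown from 10 bases before the annotated start, with capitals from the first base of the transcript on (RefSeq, GRCh38.p14, strand of the gene). The annotated start can be some bases away from the start used in these cells, which was not measured. In MRPS33 the first bases of the transcript, CTTCCGG, are also the reverse complement of the ETS core. This member is therefore counted with both features.
MRPL44, chr2:223957453-223957482, plus strand: ccatcgttttCTCTCGTGCAATGGCGTCCG
MRPL45, chr17:38297158-38297187, plus strand: ttcccggcggCCTTTGCGGGAACAAGATGG
MRPS27, chr5:72320221-72320250, minus strand: gttggctgttCCTTTTGGTACGCTCCAAGA
MRPS33, chr7:141014933-141014962, minus strand: gagggcgggcCTTCCGGGACGAGGGCGCGT

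**Figure D4:**
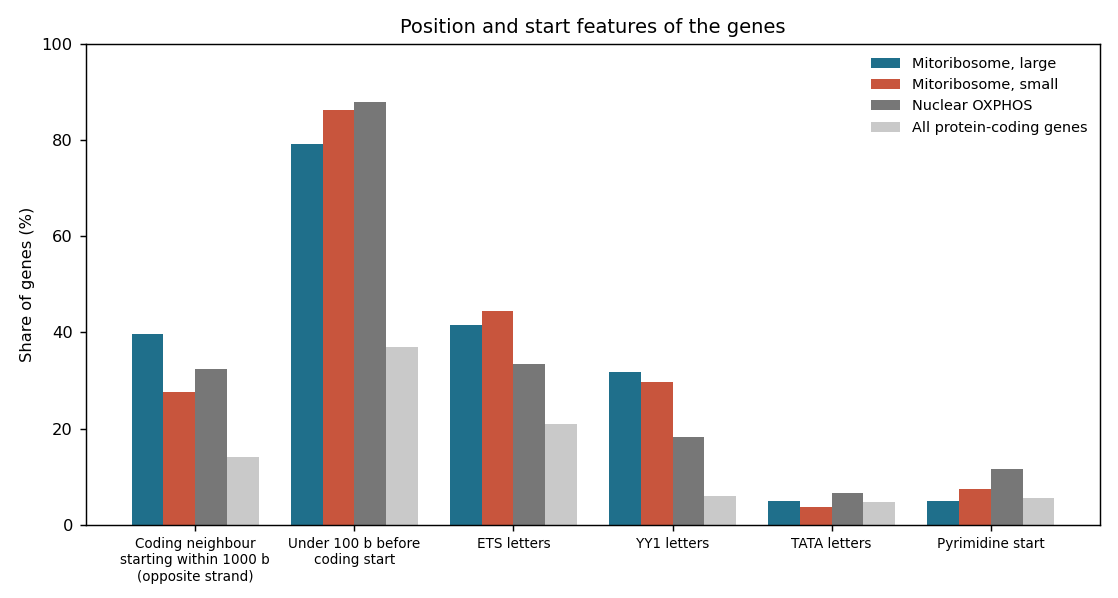
Share of genes, in percent, with a coding neighbour starting within 1000 bases on the opposite strand, with under 100 bases before the coding start, and with the searched letters or a pyrimidine start around the annotated start. Bars are the large and small subunit of the mitochondrial ribosome, the nuclear oxidative phosphorylation genes and all protein-coding genes of the table; YY1 letters reach 31.7% and 29.6% in the subunits and 6.01% in all protein-coding genes.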

How the data were processed

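RNA from MDA-MB-231 Fluc cells treated with cordycepin or DMSO was sequenced by the authors as 75 bp paired-end reads, from stranded libraries after ribosomal RNA depletion. Mapping by the authors was to GRCh38.p13, and rsubread was the tool for mapping and counting. The submitters' processing notes also name TopHat, HTSeq, DESeq and Cufflinks. The normalization, the filter on low counts and the use of strand are not given in the sources used here. The deposited table holds, per gene, a mean log2 CPM over all libraries and a length. That the log2 CPM is a mean over the libraries is inferred from there being 1 value per gene, and is not stated. The log2 fold changes, F values, p-values and adjusted p-values of the authors' comparison in the same table were not used. There were 0 further columns of values per sample.

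The log2 of the transcript length in kilobases was subtracted from the mean log2 CPM. Length, coding sequence, exons and neighbours came from the canonical transcripts of GENCODE release 44, in which 13922 of 13957 gene IDs were found. The table has the start and end of GENCODE for 68 of 77 members, and coordinates of genes are those of the table. Start regions came from RefSeq (GRCh38.p14), with 1 region per gene, that of the canonical start where present. Medians, ranges and shares are given without tests, which were not possible without values per library. The calculations were tested on simulated data. Of the start regions, 1 sequence is not reported here.

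The members and gene lists were chosen with earlier results of these data known. Genes named are the 5 highest and 5 lowest of each subunit, the S18 paralogues, MRPS30, MRPL12, MRPL58, the longest and shortest coding sequences, proteins of other symbols and the extremes of each list. Others were named after their values were seen. Alternatives were other lengths, members, reference genes and windows. Python 3.11.15, numpy 2.4.6 and pandas 2.3.3 were used.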

Additional observations from a re-analysis of the deposited data

How the results depend on the processing

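The difference of the medians, large less small subunit, was 0.79 log2 CPM per kilobase. It was 1.04 with all annotated exons as length and, as choices made after seeing the data, 0.83 with the length in the table and 0.041 with coding bases. It reversed to -0.12 on mean log2 CPM without length. It was 0.72 with MRPS30 and MRPS18A in the large subunit, 0.35 without members that share exon bases with another gene on either strand (25 large and 12 small left), 0.86 without members that have a pseudogene, 0.80 with the proteins of other symbols, 0.49 with means and 0.82 without genes at or under 2.88 log2 CPM. The large subunit was higher in 9 of these 10 alternatives, with the 0.041 on coding bases counted among them. The alternatives recalculate the same values, so their count is no measure of support, and the size and direction depended on the length used. The share of members above the median stayed between 82.7% and 92.2% in the alternatives run, all of them per kilobase. Without length this share was not calculated. There the medians were 5.56 log2 CPM for the members and 4.95 for all protein-coding genes, so they lay closer together. The share with a neighbour was 27.3% within 500 bases, where it was 11.6% for all protein-coding genes. On the strand of the gene alone ETS letters were in 22.1% of members and 11.9% of protein-coding genes, and YY1 letters in 25% and 4.61%. No paired analysis was possible because the deposited values are not given by library, and for the same reason no replicate could be left out. The depth of the libraries is unknown.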

Other observations

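The members lie on 21 chromosomes. Chromosome 11 holds 7 members, all of them of the large subunit, and chromosomes 1 and 17 hold 8 each, of both subunits. In GENCODE, 35 of the 77 members have at least 1 annotated pseudogene named after them, 78 pseudogenes in all. The share was 39.6% in the large and 55.2% in the small subunit, and MRPS21 had the most, with 8. How reads that match a gene and its pseudogene equally were counted is not given in the sources used here. The gene length in the table equals the union of annotated exons for 65 of the 77 members.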
